A study of Mus musculus with 11 samples.

Results

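Granzymes are serine proteases that cytotoxic lymphocytes store in granules, and perforin is the pore-forming protein that lets them enter a target cell. Both are released together when a killer T cell or a natural killer cell meets its target, and T cells that have just been activated build up their transcripts over several days. Mice have more granzymes than humans, because a row of paralogous genes beside the granzyme B gene has expanded in rodents.

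The 9 genes described here are Gzma, Gzmb, Gzmc, Gzmd, Gzme, Gzmf, Gzmg, Gzmk and Prf1, out of 12393 genes measured. They were chosen by name, as every probe set whose only gene symbol in the platform annotation was one of the 9. The rule found 11 probe sets, with 2 each for Gzmd and Prf1 and 1 for each of the others. RNA came from T cells of the B10.BR mouse strain after 4 days of stimulation by dendritic cells of the C57BL/6 strain, a pairing in which the T cells meet foreign major histocompatibility molecules. The dendritic cells came from Liver, MLN, PLN or Spleen in the spelling of the labels, which do not write out the middle pair; all groups share the T cell strain, the dendritic cell strain and the time. Liver, MLN and PLN had 3 arrays each, with the replicate numbers 2, 3 and 4, and Spleen had 2, numbered 3 and 4. The labels name no T cells without dendritic cells, and they do not say whether the T cells were separated from the dendritic cells before RNA was taken. What a replicate number stands for is not stated, nor is it stated that arrays sharing an organ come from different mice or cultures; the p-values therefore reflect variation between arrays, part or all of which may be technical.

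Levels are log2(intensity + 16) after quantile normalization, and intensities are quoted on the linear scale as deposited. A gene was tested when its mean level lay in the upper 60% of genes, and all 9 did, among 7436 tested genes. A difference passed when limma's p-value, adjusted over all tested genes by Benjamini-Hochberg, was under 0.05. In RNA taken from many cells together, a smaller share of cells that carry a transcript and less of it in each cell cannot be told apart.

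In the RefSeq order of GRCm38.p6, Gzme, Gzmd, Gzmg, Gzmn, Gzmf, Gzmc and Gzmb stand side by side on chromosome 14, after Ctsg, which encodes cathepsin G. Gzma and Gzmk are direct neighbours on chromosome 13, and Prf1 lies on chromosome 10. RefSeq promoter windows, from 250 bases before to 50 bases after each gene's start, were given for all 9. The windows of Gzmc to Gzmg were 78.4% to 93.7% identical over their 10 pairs, with Gzmd and Gzme the closest, and the other 26 pairs of the 9 genes were 40.3% to 50.5% identical. The following 97 bases are shown because these 5 genes moved together across the arrays. Capitals mark the 8 bases at the place of the palindrome TGACGTCA, known as the cyclic AMP response element.
Gzme (chr14:56120631-56120727, minus strand): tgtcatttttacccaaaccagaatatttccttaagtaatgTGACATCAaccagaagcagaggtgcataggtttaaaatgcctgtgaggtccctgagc
Gzmd (chr14:56132598-56132694, minus strand): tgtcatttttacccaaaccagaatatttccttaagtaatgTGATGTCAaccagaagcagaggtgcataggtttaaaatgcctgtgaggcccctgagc
Gzmg (chr14:56159600-56159696, minus strand): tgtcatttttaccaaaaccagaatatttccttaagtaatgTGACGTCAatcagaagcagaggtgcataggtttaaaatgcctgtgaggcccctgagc
Gzmf (chr14:56211433-56211529, minus strand): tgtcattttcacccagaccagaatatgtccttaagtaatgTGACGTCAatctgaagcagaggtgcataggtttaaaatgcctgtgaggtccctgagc
Gzmc (chr14:56234658-56234754, minus strand): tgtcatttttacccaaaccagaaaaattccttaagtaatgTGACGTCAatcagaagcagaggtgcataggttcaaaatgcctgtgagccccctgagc
The palindrome was present in Gzmc, Gzmf and Gzmg, where its first base lies at -57, -82 and -77 counted from the start, and Gzmd and Gzme have 1 mismatch to it at that place. Of 32851 promoter windows in the same table, 1.79% hold TGACGTCA. Gzmb and Prf1 are shown for contrast: after quantile normalization, Gzmb stayed level across the arrays and Prf1 moved with the 5 genes. Capitals stand at each match to TGTGGT, the core bound by Runx factors, or to TGACG, on either strand.
Gzmb (chr14:56262335-56262431, minus strand): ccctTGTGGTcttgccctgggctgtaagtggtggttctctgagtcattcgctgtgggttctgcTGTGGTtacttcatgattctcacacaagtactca
Prf1 (chr10:61297739-61297835, plus strand): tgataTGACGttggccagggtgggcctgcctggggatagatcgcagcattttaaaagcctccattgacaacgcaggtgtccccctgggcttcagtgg
A match to TGTGGT was found in the 300 bases of 8 of the 9 genes, all but Gzmk, and in 16.76% of all windows. TGACG, which every TGACGTCA contains, was found in Gzmb, Gzmc, Gzmf, Gzmg and Prf1 and in 20.81% of all windows. TTTAAAA was found in Gzmd, Gzme, Gzmf, Gzmg and Prf1 and in 8.74% of windows. TGANTCA (7.81% of windows) and TTCNNNGAA (8.3%) each matched Gzmb alone among the 9, and GTGTGA (14.49%) matched Gzmb and Gzmk. All 7 motifs were read on both strands, and a match describes letters, not a bound site.

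The arrays numbered 4 carried far more RNA of most of these genes than the arrays numbered 2 or 3, whatever organ the dendritic cells came from. For 7 of the 9 genes, all but Gzma and Gzmb, each of the 4 arrays numbered 4 lay above each of the other 7 arrays; 9.86% of all tested genes were separated in that way. With the organ as a term in the limma fit, the replicate number passed the test for 8 of the 9 genes, against 48.1% of all tested genes. Gzmb was the gene that did not (adjusted p = 0.844, limma). The number accounted for 83% to 93.5% of the variance of Gzmc, Gzmd, Gzme, Gzmf, Gzmg, Gzmk and Prf1, whereas its median share over all tested genes was 51.9%.

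**Figure D1:**
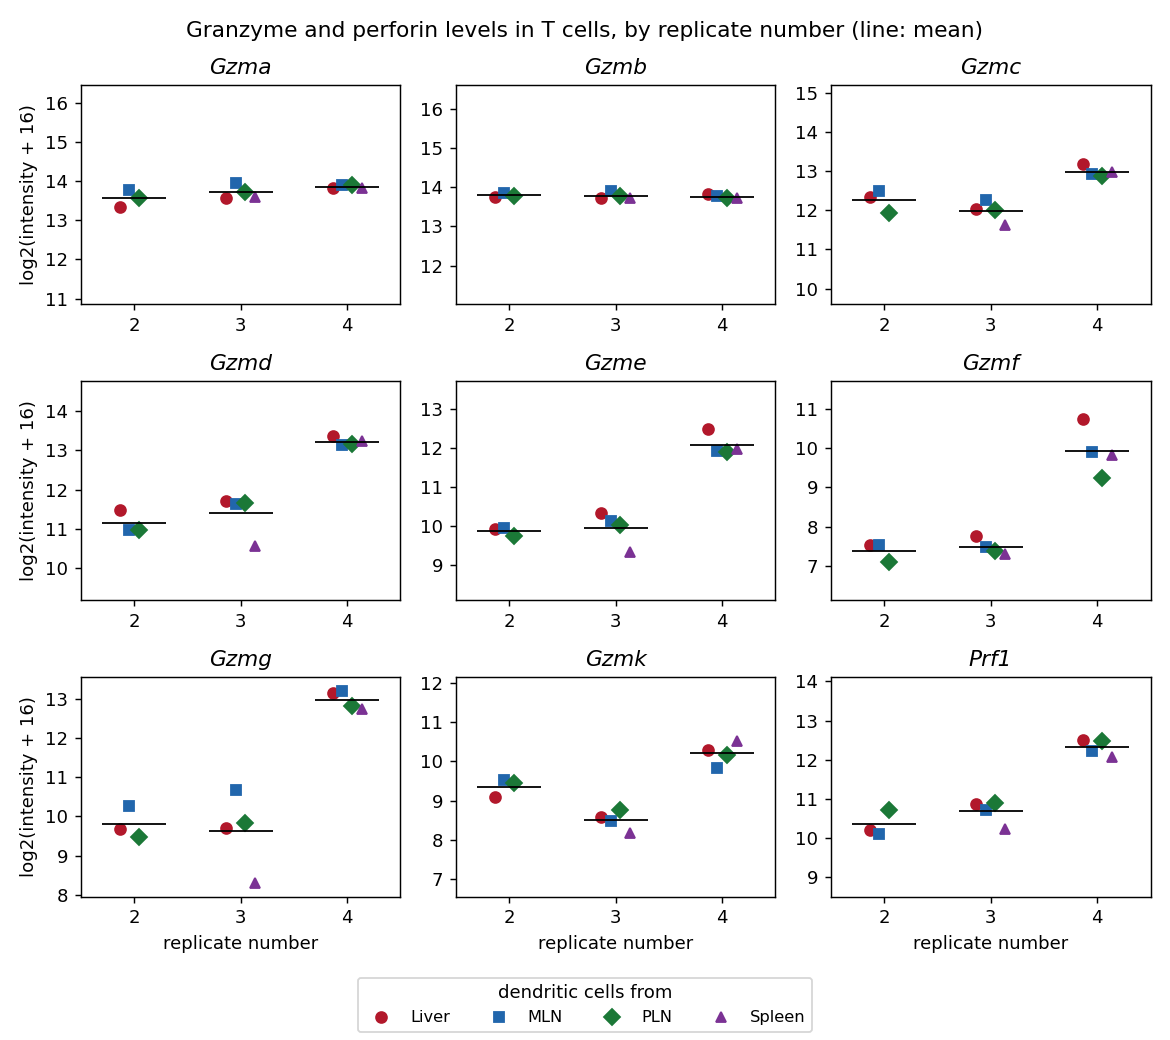
Level of each gene, as log2(intensity + 16) after quantile normalization, on the vertical axis against the replicate number on the horizontal axis. Each point is 1 array, its colour and shape give the organ of the dendritic cells, lines are means, and every panel spans the same number of log2 units; the 4 arrays numbered 4 stand above all others in 7 panels, and in the Gzmb panel all 11 lie between 13.72 and 13.90.

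Gzmb and Gzma, the best known effector granzymes, were level or nearly so after quantile normalization. Gzmb encodes granzyme B, which cleaves after aspartate and activates caspases and Bid in the target cell. Its levels were 13.76, 13.73 and 13.82 with Liver dendritic cells (numbers 2, 3 and 4, in that order here and below), 13.84, 13.90 and 13.77 with MLN, 13.78, 13.77 and 13.72 with PLN, and 13.73 and 13.72 with Spleen (numbers 3 and 4). All 11 arrays overlapped, and the highest deposited intensity was 1.53 times the lowest. The difference between number 4 and number 3 was -0.03 ± 0.04 (SE; 95% confidence interval -0.11 to 0.06; adjusted p = 0.636, limma). Quantile normalization narrowed the differences of this bright gene. Number 4 minus number 2 was 0.06, -0.06 and -0.05 with Liver, MLN and PLN, where the ratios of deposited intensities were 1.13, 0.834 and 0.69. In 9 other ways of processing all arrays, Gzmb did not pass the number F-test (lowest adjusted p = 0.329, limma).

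Gzma encodes granzyme A, which cleaves after lysine or arginine. It measured 13.35, 13.58 and 13.83 with Liver, 13.77, 13.96 and 13.89 with MLN, 13.56, 13.73 and 13.89 with PLN, and 13.60 and 13.82 with Spleen. The Liver array numbered 2 was the lowest on this scale, and the groups by number overlapped. Number 4 exceeded number 2 by 0.32 ± 0.06 (SE; adjusted p = 0.00283, limma), but this call rests on quantile normalization: with the intensities as deposited the difference was 0.14 (adjusted p = 0.424), and with median centring 0.15 (adjusted p = 0.52). Number 4 minus number 3 was 0.14 ± 0.05 for Gzma (adjusted p = 0.0593, limma) and did not pass. Deposited intensities of Gzma ran from 10346.9 to 17871.3 and those of Gzmb from 11195.9 to 17101, while the highest intensity of any probe set on an array was between 13909.4 and 21556.3; whether the top of the scale held back differences in these genes was not tested.

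Gzmc, Gzmd, Gzme, Gzmf and Gzmg, the paralogues next to Gzmb, rose together at number 4. Gzmg was the gene that differed most: its 3.34 between number 4 and number 3 was the largest of all 7436 tested genes, and the largest again at 3.43 between number 4 and number 2. Its levels were 9.67, 9.70 and 13.14 with Liver, 10.26, 10.66 and 13.19 with MLN, 9.47, 9.83 and 12.82 with PLN, and 8.31 and 12.74 with Spleen. All 4 arrays at number 4 stood at least 2.08 above every other array, and the Spleen array numbered 3 was the lowest. On the linear scale the deposited intensity of Gzmg was 11.8 times as high at number 4 as at number 3 with Liver, 6.04 times with MLN, 7.77 times with PLN and 20.9 times with Spleen. The fitted difference of 3.34 ± 0.21 (SE) is a 10.2-fold change (adjusted p = 8.18e-07, limma).

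Gzmf measured 7.53, 7.77 and 10.74 with Liver, 7.54, 7.48 and 9.90 with MLN, 7.09, 7.38 and 9.24 with PLN, and 7.30 and 9.84 with Spleen. Number 4 and the other arrays were separated by 1.47, and within number 4 the Liver array was the highest and the PLN array the lowest. The difference of number 4 from number 3 was 2.45 ± 0.16 (SE; 5.46-fold; adjusted p = 9.99e-07, limma).

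Gzme levels were 9.94, 10.33 and 12.47 with Liver, 9.95, 10.14 and 11.92 with MLN, 9.74, 10.03 and 11.89 with PLN, and 9.34 and 11.98 with Spleen. Again the arrays numbered 4 were clear of the rest, by 1.56, with the Liver array above the other 3. Number 4 exceeded number 3 by 2.10 ± 0.12 (SE; 4.29-fold; adjusted p = 5.23e-07, limma).

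Gzmd was read by a pair of probe sets that gave nearly the same picture, with ranges of 10.57 to 13.37 for the one used in the tests and 10.57 to 13.39 for the other. The one used gave 11.48, 11.71 and 13.37 with Liver, 10.98, 11.62 and 13.13 with MLN, 10.97, 11.67 and 13.17 with PLN, and 10.57 and 13.24 with Spleen. The arrays numbered 4 lay close together, within 0.24 of each other, and the Spleen array numbered 3 was the lowest of all. Gzmd was 1.83 ± 0.16 higher at number 4 than at number 3 (SE; 3.56-fold; adjusted p = 5.14e-06, limma).

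Gzmc, a mouse granzyme of chymotrypsin-like type, showed the smallest difference of the 5. It measured 12.33, 12.04 and 13.18 with Liver, 12.49, 12.27 and 12.92 with MLN, 11.94, 12.02 and 12.88 with PLN, and 11.62 and 12.98 with Spleen. The gap between number 4 and the nearest other array was 0.38, and number 4 minus number 3 was 1.0 ± 0.10 (SE; 2-fold; adjusted p = 1.52e-05, limma).

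These paralogues are alike in sequence, and the probe sets used for Gzmd and Gzme carry the suffix of sets whose probes can match other transcripts. One more probe set, annotated to both Gzmd and Gzme and left out by the rule, ran from 9.59 in the Spleen array numbered 3 to 12.93 in the Liver array numbered 4. How far each of the 5 genes was read apart from its neighbours was not tested. Gzmn and Gzmm, other granzymes, fell below the level needed for testing.

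Prf1, which encodes perforin, moved with the cluster although it lies on another chromosome. Its main probe set gave 10.21, 10.87 and 12.50 with Liver, 10.11, 10.72 and 12.21 with MLN, 10.72, 10.89 and 12.47 with PLN, and 10.24 and 12.07 with Spleen. Every array at number 4 exceeded every other by at least 1.18. Number 4 was above number 3 by 1.63 ± 0.09 (SE; 3.1-fold; adjusted p = 5.23e-07, limma) and above number 2 by 2.08 ± 0.10 (SE; adjusted p = 6.17e-07, limma), the smallest p-value of all tested genes in that contrast. A dimmer probe set of Prf1 stayed between 6.31 and 7.03 on the 11 arrays and showed no such step.

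Gzmk, the neighbour of Gzma and like it a trypsin-like granzyme, was the 1 gene of the 9 that passed as lower at number 3 than at number 2. It measured 9.10, 8.59 and 10.29 with Liver, 9.53, 8.49 and 9.84 with MLN, 9.45, 8.77 and 10.17 with PLN, and 8.17 and 10.53 with Spleen. The means at numbers 2, 3 and 4 were 9.36 ± 0.23 (SD, n = 3), 8.50 ± 0.25 (SD, n = 4) and 10.21 ± 0.29 (SD, n = 4). Number 3 minus number 2 was -0.85 ± 0.18 (SE; adjusted p = 0.00708, limma), and number 4 minus number 3 was 1.70 ± 0.16 (SE; 3.26-fold; adjusted p = 9.25e-06, limma).

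Between number 4 and number 3, 7 of the 9 genes rose and none fell, where 43.3% of all tested genes passed, 22.3% as higher and 21% as lower. The median difference was 1.70 for the 9 genes and 0.01 for all tested genes, of which 1 in 100 exceeded 1.17. Between number 4 and number 2, 8 of the 9 passed as higher, where 27.2% of all tested genes passed, 14.8% as higher and 12.4% as lower, with a median of 2.08 beside 0.01. Gzmc was higher by 0.80 ± 0.11 (SE; adjusted p = 5.30e-04, limma) and Gzmk by 0.85 ± 0.18 (SE; adjusted p = 0.00458, limma) in that contrast, and Gzmd, Gzme and Gzmf by 2.22, 2.31 and 2.59. The contrasts share the arrays numbered 4, so they are set side by side and not counted as 2 findings.

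Numbers 2 and 3, by contrast, were close for these genes. Of the 9, Gzmk was lower and Prf1 higher at number 3, which is 2 genes where 18.9% of all tested genes passed in either direction, 9.29% as higher and 9.59% as lower. Prf1 rose by 0.45 ± 0.10 (SE; adjusted p = 0.00939, limma). Either call could be lost with 1 array: without the MLN array numbered 2, Gzmk gave -0.67 (adjusted p = 0.0543, limma) and Prf1 0.40 (adjusted p = 0.058), and without the Liver array numbered 2, Prf1 gave 0.35 (adjusted p = 0.0537). The other 7 genes differed by -0.20 to 0.39 and did not pass.

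**Figure D2:**
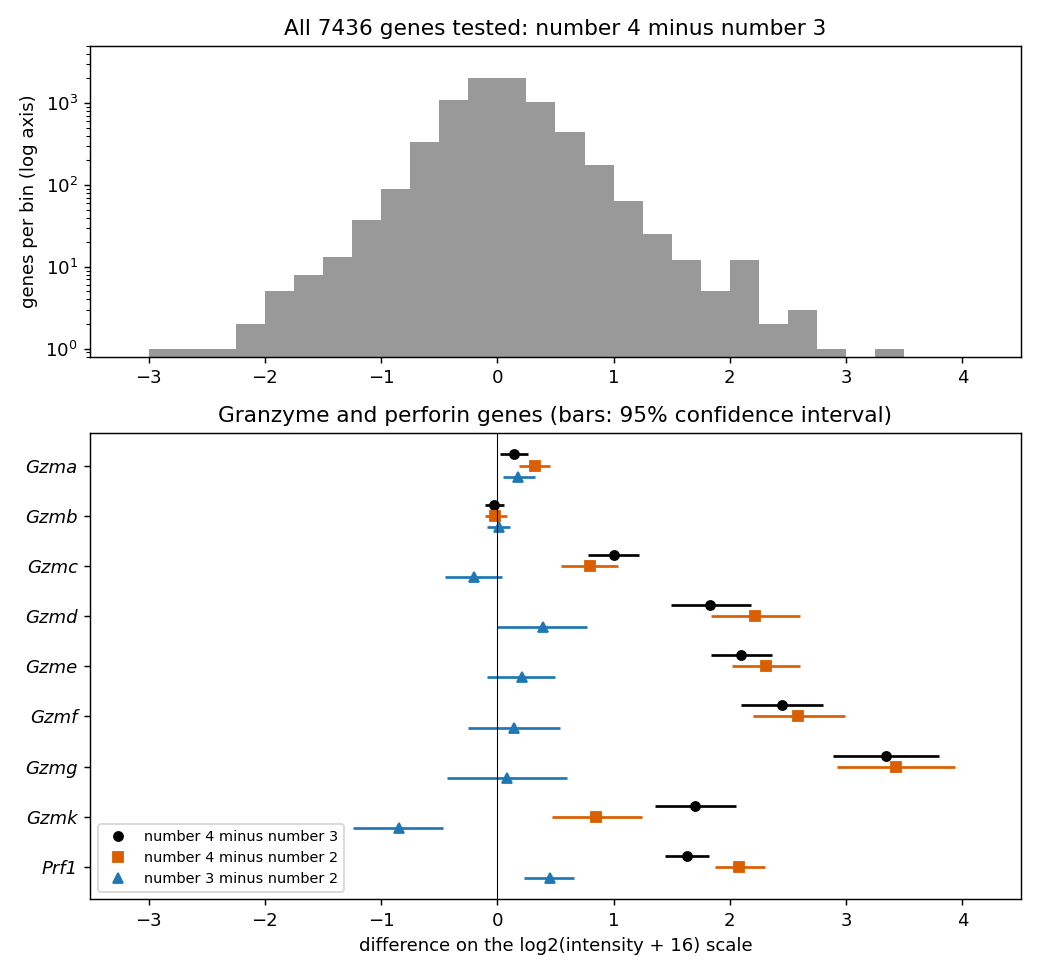
Top, the number of tested genes (logarithmic axis) in each 0.25-wide bin of the difference between number 4 and number 3 on the log2(intensity + 16) scale. Bottom, the 9 genes on the same horizontal axis, with points for the fitted differences between numbers and bars for their 95% confidence intervals; Gzmg at 3.34 forms the right end of the distribution of all genes, and Gzmb lies within 0.03 of 0 in all 3 contrasts.

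The organ of the dendritic cells did not separate these genes when the arrays of an organ were taken as replicates. In the limma F-test over the 4 organs, 0 of the 9 passed, as did 0.0403% of all tested genes, and at an unadjusted p under 0.05 there were 0 of the 9 and 190 of all tested genes. No pair of organs gave a call for any of the 9 in that fit, where 0.161% of all tested genes passed for Liver minus MLN, 0.0134% for MLN minus PLN and 0 for the other 4 pairs. For the 7 genes that rose at number 4, organ means differed by less than their spread, which includes the step between numbers. Spleen has no array numbered 2, so its means are not on a par with those of the other organs. Gzmg averaged 11.37 ± 1.59 with MLN, 10.84 ± 1.99 with Liver and 10.71 ± 1.84 with PLN (SD, n = 3), and 10.52 ± 3.13 with Spleen (SD, n = 2). Prf1 averaged 11.36 ± 0.97 with PLN, 11.20 ± 1.18 with Liver and 11.01 ± 1.08 with MLN (SD, n = 3), and 11.16 ± 1.29 with Spleen (SD, n = 2). For Gzmf the order was Liver at 8.68 ± 1.79, Spleen at 8.57 ± 1.80, MLN at 8.31 ± 1.38 and PLN at 7.90 ± 1.17, and no neighbours in any of these orders differed beyond their spread. With the number in the fit, MLN stood above Spleen for Gzmf, by 0.19 ± 0.22 (SE; adjusted p = 0.757, limma). The means of Gzmd, Gzme and Gzmc spanned 0.28, 0.36 and 0.28 between the highest and the lowest organ, and those of Gzmk 0.18. Gzma averaged 13.87 ± 0.10 with MLN, 13.73 ± 0.16 with PLN and 13.58 ± 0.24 with Liver (SD, n = 3), and 13.71 ± 0.16 with Spleen (SD, n = 2). Gzmb lay between 13.73 ± 0.01 with Spleen (SD, n = 2) and 13.84 ± 0.07 with MLN (SD, n = 3).

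Because same-numbered arrays deviated together across genes, the organs were also compared with the number as a block. The F-test then passed 0 of the 9 genes and 1.98% of all tested genes, while 7 of the 9, and 1151 of all 7436 tested genes, had an unadjusted p under 0.05. The smallest adjusted p-values were 0.0525 for Prf1, 0.0753 for Gzmg and 0.0987 for Gzma (limma). When the number was a random block, 0 of the 9 passed and 0.686% of all tested genes did.

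Gzma was the 1 gene of the 9 that passed in a pair of organs with the block, with a Liver minus MLN difference of -0.29 ± 0.06 (SE; adjusted p = 0.0255, limma), where 4.13% of all tested genes passed in either direction and 2.25% as lower. Without the block the same difference had an SE of 0.12 and an adjusted p of 0.94 (limma), and with a random block an adjusted p of 0.0584. Liver lay below MLN within each number, by -0.42 at number 2, -0.38 at number 3 and -0.06 at number 4. On the deposited intensities the ratio of Liver to MLN was 0.65 and 0.652 at numbers 2 and 3, and 1.01 at number 4, so the arrays numbered 4 carried little of it. The blocked call held without each array in turn except the 4 Liver and MLN arrays numbered 2 and 3; without 1 of those the adjusted p rose to as much as 0.171 (limma).

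For the cluster genes and Prf1, organ differences within a number were smaller than the fitted step from number 3 to number 4. None of the organ differences passed in the full blocked fit. Gzmf was higher with Liver than with PLN in all 3 numbers, by 0.44, 0.39 and 1.5, and the blocked estimate was 0.78 ± 0.19 (SE; adjusted p = 0.0631, limma), where 1.49% of all tested genes passed in either direction. The normalized level of Gzmg was highest with MLN among Liver, MLN and PLN at each number, exceeding PLN by 0.79, 0.83 and 0.37. On deposited intensities, Liver (9731) and MLN (9680.9) were nearly equal at number 4. MLN minus Spleen for Gzmg was 2.35 at number 3 and 0.46 at number 4, for a blocked estimate of 1.43 ± 0.28 (SE; adjusted p = 0.0645, limma; 0.215% of all tested genes passed). Prf1 was lower with MLN than with PLN by -0.61, -0.17 and -0.26 at numbers 2, 3 and 4 (blocked -0.35 ± 0.10, SE; adjusted p = 0.533, limma; 0.148% of all tested genes passed), and at numbers 3 and 4 the Spleen array was the lowest of its number.

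The Spleen values rest on 2 arrays that differed widely. The Spleen array numbered 3 was the lowest of all 11 for Gzmc, Gzmd, Gzme, Gzmg and Gzmk. At number 4 the Spleen array was the lowest of its number for Gzmg, at 12.74, and the highest of all 11 arrays for Gzmk, at 10.53, and it lay between the others for Gzmc, Gzmd and Gzme. When the Spleen array numbered 4 was left out, Spleen was represented by the array numbered 3 alone. The blocked Liver minus Spleen differences of Gzmd, Gzme and Gzmg were then 1.28, 1.03 and 1.62. With both arrays the blocked Liver minus Spleen differences of Gzmd, Gzme and Gzmg were 0.72, 0.67 and 0.90, and their adjusted p-values lay between 0.444 and 0.446 (limma). Whether the organs differ more at one number than at another could not be tested, since no organ has more than 1 array at a number.

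**Figure D3:**
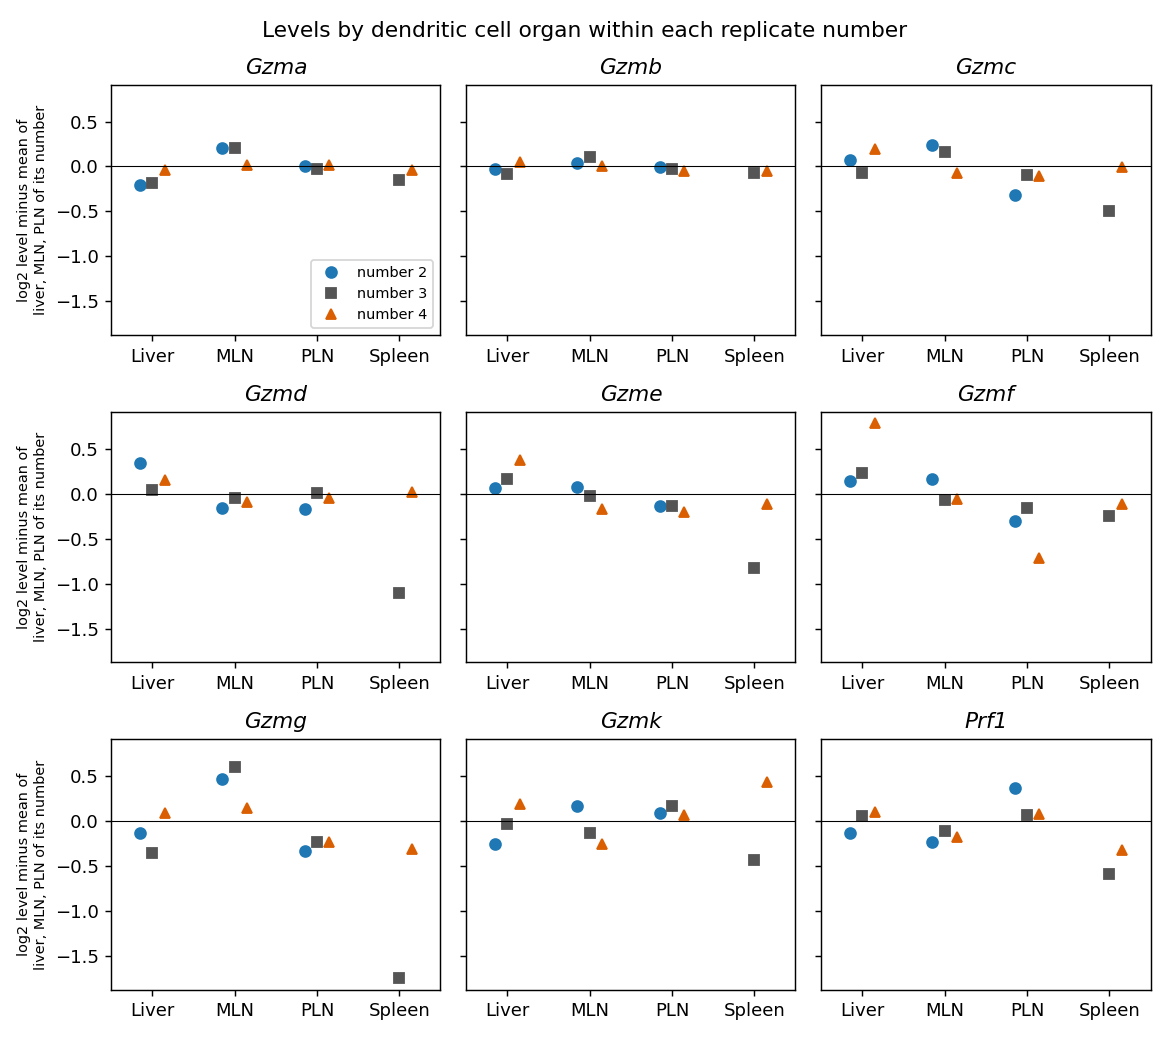
Deviation of each array from the mean of the Liver, MLN and PLN arrays of its own number, in log2 units (vertical axis), by organ of the dendritic cells (horizontal axis); each point is 1 array and its colour and shape give the number. The Spleen array numbered 3 lies far below 0 for Gzmd, Gzme and Gzmg, and the Liver array lies below the MLN array at each number for Gzma.

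Across the 11 arrays the levels of Gzmc, Gzmd, Gzme, Gzmf and Gzmg were correlated with each other at Pearson's r from 0.901 to 0.983, and adding Prf1 widened this to 0.817 to 0.983. These values describe arrays that share the step between numbers; after organ and number were subtracted, the pairs among the 6 genes ran from 0.026 to 0.906, over few remaining degrees of freedom. By Pearson's r over the 11 arrays, the genes outside the list nearest to the mean of the 9 were Ap3d1 (r = 0.978), Tmem119 (0.977), Golm1 (0.969), Cd55 (0.962) and Pxn (0.958). Their rank correlations (Spearman) with that mean were lower, at 0.8, 0.736, 0.855, 0.791 and 0.7 in the same order. The step between numbers is part of all these values. Ap3d1 was also nearest to Gzme (r = 0.981), Tmem119 to Gzmg (0.960) and Avil to Prf1 (0.974). Gzmg was next most similar to Cd244a (r = 0.951), a receptor of natural killer and cytotoxic T cells. Gzmb, with its narrow range, was nearest to Gosr2 (r = 0.894) and Cd160 (0.879), and Gzma to Klhdc4 (0.917) and Entpd1 (0.903).

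Genes of related lists were higher, lower or did not pass, and their counts stand beside the 22.3% of all tested genes that were higher and the 21% that were lower at number 4 than at number 3. Of 17 tested genes for granule sorting and release, 5 were higher and 2 lower at number 4 than at number 3, with a median of 0.14. Among them Ctsw, a cathepsin of cytotoxic lymphocytes, was higher by 1.21 ± 0.08 (SE; adjusted p = 8.18e-07, limma), Nkg7, a granule membrane protein, by 0.38, and Igf2r, a receptor for mannose 6-phosphate tags, by 0.57. Srgn, the proteoglycan core on which granzymes are packed, differed by -0.04 and did not pass. Of 11 genes for granzyme processing and inhibition, 2 were higher and 2 lower: Serpinb6b, an intracellular serpin, rose by 0.94 ± 0.06 (SE; adjusted p = 7.56e-07, limma), and Ctsh, a cathepsin able to trim pro-granzyme B, fell by 1.19. Serpinb9, the inhibitor of granzyme B, differed by 0.09 between numbers 4 and 3 and did not pass, although number 4 exceeded number 2 by 0.73 (adjusted p = 6.03e-04, limma).

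Regulators of cytotoxic genes gave 11 higher and 4 lower of 22 tested at number 4 against number 3, with a median of 0.26. Prdm1, which encodes Blimp-1, rose by 0.62 (adjusted p = 8.54e-05, limma) and Hopx by 0.55, while Id3 fell by 1.42 (adjusted p = 2.96e-05). Tbx21 and Eomes, the T-box factors of cytotoxic cells, and Lef1, all chosen after their values were seen, rose by 0.58, 0.44 and 0.47. Of 17 cytokine and receptor genes that bear on granzyme induction, 5 were higher and 6 lower, with a median of -0.06: Il2 fell by 2.66 ± 0.23 (SE; adjusted p = 6.09e-06, limma), Il2ra by 0.58, and Il7r rose by 0.76. Ifng differed by 0.02 between numbers 4 and 3 but was 1.70 higher at number 4 than at number 2 (adjusted p = 8.29e-05, limma) and 1.68 higher at number 3 than at number 2 (adjusted p = 1.52e-04). Among 10 death ligand and receptor genes, 2 were higher and 2 lower, with a median of -0.11, and of 5 other granzyme and granule genes 2 were higher, Fgl2 by 0.71 and Klrg1 by 0.49, and Lyz2 fell by 0.63. Mast cell protease genes and Ctsg on chromosome 14 were below the level needed for testing, all 6 of those measured.

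**Figure D4:**
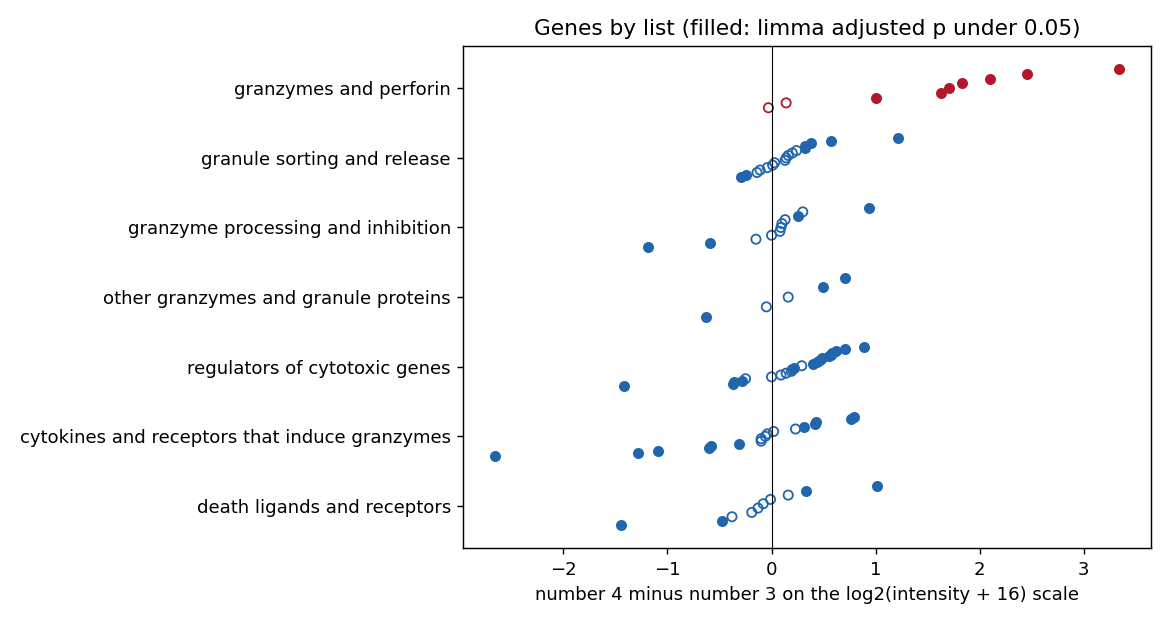
Difference between number 4 and number 3 on the log2(intensity + 16) scale (horizontal axis) for the 9 genes in red and for 6 lists of related genes in blue, 1 point per tested gene, filled where limma's adjusted p was under 0.05. Granzyme and perforin genes reach 3.34, and no tested gene of the other lists exceeds 1.21.

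Other transcripts moved with the number as well, and their part in these results was not tested. All 4 tested natural killer cell markers rose between numbers 3 and 4, led by Klrd1 at 1.37 (adjusted p = 1.07e-05, limma) and Fcer1g at 1.15, and the summed intensity of the measured markers was 2748 to 6254 at number 2, 2668 to 4228 at number 3 and 6109 to 8348 at number 4. The defining markers Ncr1 and Klra8 were below the level needed for testing. Mean intensities at numbers 2, 3 and 4 were 54.6, 66.8 and 57.2 for Ncr1 (range 34.1 to 84.3) and 15.4, 30.8 and 73 for Klra8 (range 2.7 to 80.3). Cd8a differed by -0.07 and did not pass, Cd8b1 rose by 0.54, and Cd4 fell by 0.34; the summed CD8 intensity was 5719 to 6819 at number 3 and 6189 to 8524 at number 4. Of 9 dendritic cell markers 7 fell and 1, Itgax, rose by 1.85, and their summed intensity was 6301 to 6790 at number 2, 9050 to 10375 at number 3 and 5122 to 6639 at number 4. Of 11 cell cycle genes 6 fell and none rose, with a median of -0.20. T cell markers were abundant throughout, with sums of 15786 to 23740, 3 of 6 tested higher and 1 lower at number 4, while all 3 measured hepatocyte markers were below the level needed for testing. B cell and plasma cell markers were also present: the intensity of Ighm was 7729.8 to 11480.6 and that of Jchain 649.4 to 1682.1. Of 5 tested, 2 were higher and 0 lower at number 4 than at number 3.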

How the data were processed

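Arrays were mapped to organ and replicate number by their titles. Each deposited value is the linear intensity of a probe set on 1 array, already scaled by the authors: with 2% trimmed from either tail, every array averaged 500.2. Which software summarised the probes is not given in the sources used here. Of 22690 probe sets, 64 controls were left out; 20393 had 1 symbol in the platform annotation, 691 several and 1606 none, and 20364 symbols were matched to RefSeq for GRCm38.p6. No column was left unmapped.

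Intensities were transformed as log2(intensity + 16) and quantile normalized, since array medians ran from 144.3 to 170.4. The probe set with the highest mean stood for each gene. The upper 60% of genes, above an intensity of 104.7, were fitted with limma 3.58.1 in R 4.3.3 (lmFit, eBayes with trend, Benjamini-Hochberg) in 1 model of 4 organ means, in the same model with the replicate number as a fixed or random block, and in a model of organ plus number. The added 16 makes fold changes of dim genes too small; the number of arrays limits precision. The code was tested on simulated data.

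The numbers pair the arrays: after organ means were subtracted, same-numbered arrays correlated across genes at 0.412 to 0.731 (15 pairs) and others at -0.708 to 0.0841 (30 pairs), and 11 of 11 arrays correlated best with their own number. The members, the gene lists and the tests were chosen with earlier results of these data known. Named genes are the 9 members, up to 4 genes of smallest p per list in the organ and in the number test, the genes most correlated with each member, and cell type markers.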

Additional observations from a re-analysis of the deposited data

Results flagged for a closer look

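In 2 cases, 1 array stood apart from the others of its number by Dixon's test, out of 18 groups of 4 tested (9 genes at numbers 3 and 4). Chance gives about 1 in 20 where the 4 arrays are replicates and the groups are independent. Neither holds here, since the arrays of a number differ in organ and several of the 9 genes moved together. An odd array and an organ difference cannot be told apart in these groups. For Gzmd at number 3, the Spleen array measured 10.57, the next lowest 11.62, and that gap was 0.922 of the whole range. For Gzme at number 4, the Liver array measured 12.47, the next highest 11.98, and the gap was 0.849 of the range. Groups of 3 arrays were not tested.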

How the results depend on the processing

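The alternatives were intensities as deposited, median centring, pseudocounts of 1 and 64, no filter, the upper 40% of genes, the mean of all probe sets, every probe set on its own, no variance trend, the number as a fixed or random block, and leaving out each array in turn. Among settings that kept all arrays, 111 counts of members called stayed within 1.5 times of the reported count and 2 did not. The exceptions were Liver minus MLN, with 1 gene (Gzma) called under the replicate block, and number 3 minus number 2, with 1 gene called when probe sets were averaged, where Prf1 gave 0.15 (adjusted p = 0.325, limma). Gzma also lost the number F-test with intensities as deposited (adjusted p = 0.534, limma) and with median centring (0.656). No direction reversed among differences that passed in the reported fit or with the replicate block. Some organ differences that passed in neither fit changed sign between them. Without and with the block, MLN minus Spleen was -0.26 and 0.19 for Gzmf, and -0.14 and 0.28 for Prf1. PLN minus Spleen was -0.11 and 0.31 for Gzme, and -0.02 and 0.08 for Gzmc. With the upper 40% of genes, Gzmf was not tested.

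When 1 array was left out, number 3 minus number 2 called 0 to 3 of the 9 genes, number 4 minus number 3 called 7 to 8, and number 4 minus number 2 and the number F-test called 8 throughout. Without the block, organ comparisons called 0 throughout. With the replicate block, the genes of the 9 that passed an organ comparison varied with the array left out, except for MLN minus PLN, where none did. Liver minus MLN of Gzma was lost only without a Liver or MLN array numbered 2 or 3. The share of all tested genes that passed was not taken for fits with 1 array left out. Counts from those fits are therefore not read as results. In the full blocked fit that share was 1.98% for the organ F-test and at most 4.13% for a pair of organs. Liver minus PLN of Gzmf passed without the PLN array numbered 3 (0.95, adjusted p = 0.0425, limma). In the blocked F-test, Gzma passed without the MLN array numbered 4 (adjusted p = 0.0276, limma) and Prf1 without the PLN array numbered 2 (adjusted p = 0.0411). Fits that leave Spleen 1 array are given here by their differences only, whether or not they passed. Liver minus MLN of Gzmg was -0.54 without the Spleen array numbered 3 and -0.53 without the one numbered 4, fits that leave Spleen 1 array. MLN minus Spleen of Gzmg passed without the MLN array numbered 4 (1.78, adjusted p = 0.0408, limma). Without the Spleen array numbered 4, Liver, MLN and PLN exceeded the remaining Spleen array by 1.62, 2.16 and 1.49 for Gzmg. For Gzmd these differences were 1.28, 1 and 1.03. The cause of these changes was not tested beyond the smaller number of arrays.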
